A study of Mus musculus with 6 samples.

Results

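Genes of ketone body synthesis and use were examined in kidneys of *Pkd1* mutant mice. They were *Bdh1*, *Bdh2*, *Oxct1*, *Acat1* and *Slc16a1*, found by their symbols in the deposited transcript table. All 5 were listed, with 7 of the table's 54721 transcripts, among 23276 gene symbols. Total RNA of 6 whole kidneys was sequenced, from mice labelled as 22 days old. The 3 SKO mice carried KspCre and *Pkd1* F/RC, and the 3 DKO mice carried these together with miR17~92 F/F. Both groups thus shared the Cre transgene, a floxed *Pkd1* allele and a hypomorphic RC allele. KspCre is driven by the promoter of a cadherin of kidney tubules and acts mainly in the distal nephron and collecting duct, so other kidney cells, the proximal tubule largely included, keep the floxed alleles. miR-17∼92 is a cluster of miRNAs, short RNAs that repress mRNAs by pairing with their 3′ UTRs.

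Only 1 measured value per transcript was used, the authors' mean abundance on the log2 scale in CPM, read counts scaled to the size of each library. It is a mean over the kidneys of the comparison, taken here to be these 6, and the table names no sample beside it. The fold changes and p-values of the authors' own comparison were not used. No difference between SKO and DKO kidneys was therefore estimated or tested here, and no replicate error or library depth stood behind any level. Because reads came from whole kidneys, a high level in few cells could not be told apart from a low level in many cells.

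Ketone bodies are made in mitochondria from acetyl-CoA, mostly in liver, and burned in mitochondria of kidney, heart, muscle and brain. In the tissue that makes them, BDH1 reduces acetoacetate to 3-hydroxybutyrate. In consuming tissue BDH1 runs in the other direction, succinyl-CoA:3-ketoacid CoA transferase (*Oxct1*) activates acetoacetate, and the mitochondrial thiolase ACAT1 splits acetoacetyl-CoA into acetyl-CoA. Monocarboxylate transporters such as MCT1 (*Slc16a1*) carry ketone bodies and lactate across the plasma membrane.

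The enzymes of ketone use stood far above the transporter *Slc16a1*. Levels of different genes were compared as CPM per kilobase (kb) of transcript, since a longer transcript yields more reads. *Oxct1* had 107 CPM per kb, *Acat1* 45.5, *Bdh2* 32.0, *Bdh1* 12.1 and *Slc16a1* 2.60. *Oxct1* was thus 2.36 times *Acat1*, 8.87 times *Bdh1* and 41.3 times *Slc16a1* on this scale. *Acat1* was 1.42 times *Bdh2* with these transcripts. Dividing the same CPM by the length of the longest annotated *Bdh2* transcript (3134 nt, a retained intron, against 1172 nt) gave 11.96 CPM per kb. That longer transcript was not listed with a level of its own, so the lower value reflects only the length used. The level of *Bdh1* and its ratios rest on its transcript of 3122 nt. With its transcript of 1711 nt, *Bdh1* had 21.9 CPM per kb. Whether neighbours in this order differ beyond the spread between kidneys could not be assessed.

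Among 20167 genes with a RefSeq mRNA and a known length, the median level was 1.404 CPM per kb, and all 5 genes lay above it. *Oxct1* held place 205 from the top, *Acat1* 552, *Bdh2* 815, *Bdh1* 2334 and *Slc16a1* 8076. Of these genes, 99.0% lay below *Oxct1* and 97.3% below *Acat1*, whereas 59.95% lay below *Slc16a1*. Genes with hardly any reads are included here. In CPM among the 13001 symbols with at least 1 CPM, 47.0% lay below *Slc16a1*, which put it under the median of those. The plot of all genes shows *Oxct1*, *Acat1* and *Bdh2* in the upper tail and *Slc16a1* within the main peak, with *Bdh1*, at 3.60 on the log2 scale, between them.

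**Figure D1:**
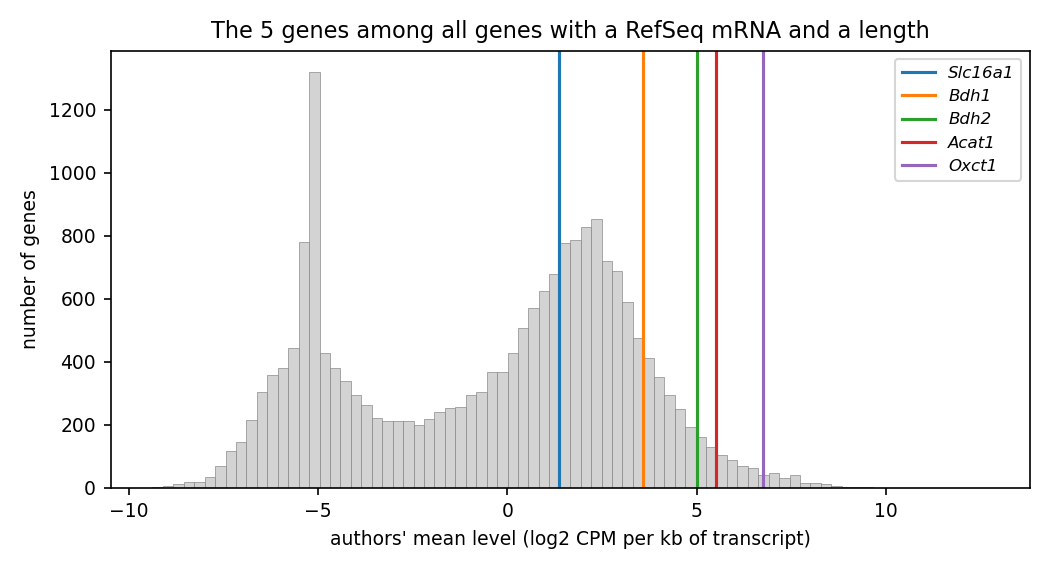
Histogram of the authors' mean level over 20167 genes, in log2 CPM per kb of transcript, with the number of genes on the vertical axis and a line for each of the 5 genes. *Slc16a1*, at 1.38, lies within the main peak, and *Oxct1*, at 6.75, lies farthest to the right of the 5.

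*Oxct1* encodes the CoA transferase of ketone use, a mitochondrial enzyme that liver lacks. It lies on the forward strand of chromosome 15 (RefSeq, GRCm38.p6, the assembly also known as mm10), from 4026428 to 4155344. Its transcript, NM_024188, has 17 exons and encodes 520 residues. The authors' mean was 378.8 CPM, or 8.57 on the log2 scale. Exons of the antisense gene *BC037032* overlap those of *Oxct1* by up to 467 nt. The libraries kept the strand, but whether counting used it is not given in the sources used here. The testis-expressed copies of this enzyme, *Oxct2a* and *Oxct2b*, are nearly identical to each other, so their reads are uncertain. Both were at 0.0335 CPM, close to the table's lowest value of 0.0263 CPM.

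*Acat1* encodes the mitochondrial acetoacetyl-CoA thiolase, which also takes part in isoleucine breakdown. It lies on the reverse strand of chromosome 9, from 53580522 to 53610350, and its transcript NM_144784 has 12 exons. Its mean was 155 CPM, or 7.27 on the log2 scale. Per kb, *Acat1* was 8.17 times the cytosolic thiolase *Acat2*, which serves sterol synthesis. The other mitochondrial thiolases examined, *Acaa2* and *Hadhb* of fatty acid oxidation, had 54.6 and 54.2 CPM per kb, so *Acaa2* stood at 1.20 times *Acat1*.

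*Bdh1* encodes the mitochondrial 3-hydroxybutyrate dehydrogenase. It lies on the forward strand of chromosome 16, from 31422297 to 31458901, and was listed with a pair of transcripts. NM_001122683 had 37.8 CPM and NM_175177 had 37.5 CPM. Both encode the same 343 residues. They differ in the 5′ UTR and in the 3′ UTR, which is 1807 nt long in NM_001122683 and 403 nt in NM_175177. They share 1478 nt, with 1644 nt found only in the first and 233 nt only in the second. The levels nevertheless differed by only 0.256 CPM, or 0.6775% of the higher one.

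This near equality bears on the level per length. With the length of the shorter transcript, *Bdh1* had 21.9 CPM per kb instead of 12.1, and remained below the 32.0 of *Bdh2*. With their own lengths, the listed *Bdh2* transcripts had 32.0 and 35.2 CPM per kb, above both of *Bdh1*. Dividing the same CPM by the longest annotated transcript of each gene gave 11.96 for *Bdh2* (3134 nt, a retained intron) and 11.95 for *Bdh1*. Neither of these longest transcripts was listed with a level. How far *Bdh2* stood above *Bdh1* thus depended on the length chosen. The antisense gene *Gm15743* overlaps *Bdh1* exons by up to 240 nt.

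*Bdh2* encodes a cytosolic short-chain dehydrogenase that has been described as a second 3-hydroxybutyrate dehydrogenase and as an enzyme of siderophore synthesis. It lies on the forward strand of chromosome 3, from 135281221 to 135304426. NM_001172055 had 37.5 CPM and NM_027208 had 37.3 CPM, with 10 exons each. The first encodes 255 residues and the second 245. All 1059 nt of NM_027208 are contained in NM_001172055, and the further 113 nt of the latter went with a difference of 0.225 CPM.

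Such agreement between transcripts was common in the table. Of 1906 genes with 2 RefSeq mRNA transcripts and at least 1 CPM, 1440 (75.6%) had levels within 0.1 on the log2 scale, and the median difference was 0.01045. The difference was 0.00981 for *Bdh1* and 0.00869 for *Bdh2*. Levels of transcripts of 1 gene were therefore not read as separate measurements of isoforms and were not added up. How shared reads were assigned to transcripts was not tested.

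**Figure D2:**
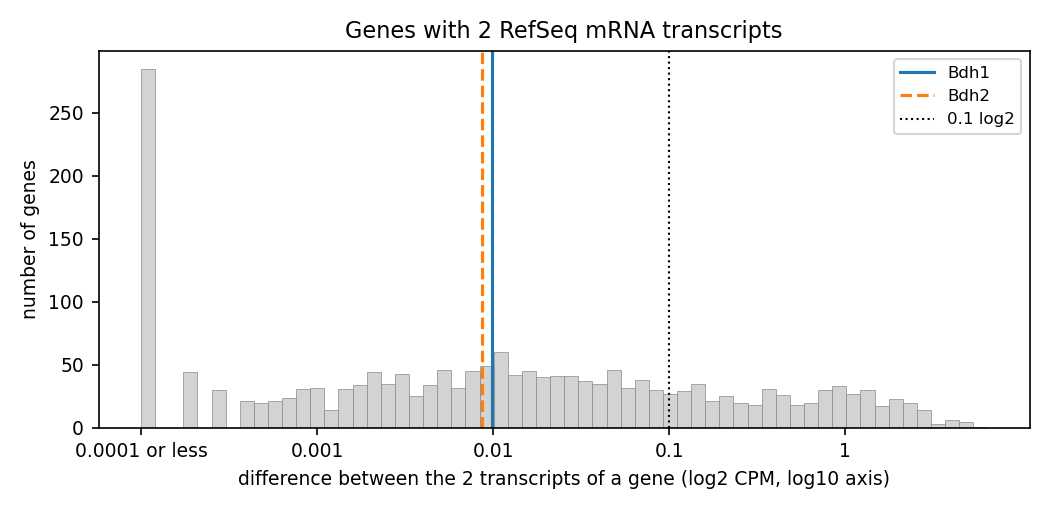
Histogram of the difference in log2 CPM between the 2 transcripts of each of 1906 genes, on a log10 axis with the smallest differences gathered in the first bar. The lines of *Bdh1* (0.00981) and *Bdh2* (0.00869) lie near the median of 0.01045, and the dotted line marks 0.1.

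*Slc16a1* encodes MCT1, a proton-coupled carrier of lactate, pyruvate and ketone bodies. It lies on the forward strand of chromosome 3, from 104638664 to 104658462, and its transcript NM_009196 has 5 exons and, at 2740 nt, the longest 3′ UTR of the 7 transcripts. Its mean was 11.5 CPM, or 3.53 on the log2 scale, the lowest of the 5 genes on either scale.

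**Figure D3:**
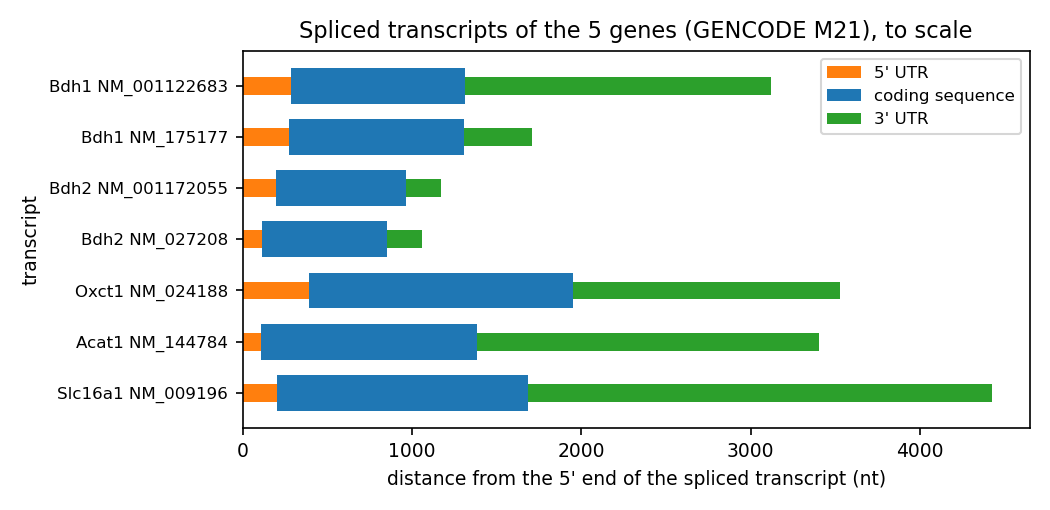
The 7 spliced transcripts to scale, in nt from the 5′ end, with 5′ UTR, coding sequence and 3′ UTR as coloured bars. The 3′ UTR ranges from 205 nt in both *Bdh2* transcripts to 2740 nt in *Slc16a1*.

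Other genes of the pathway were taken from a list, of which 20 genes are described here and 15 had at least 1 CPM. *Hmgcll1*, a relative of the ketogenic enzymes that acts outside mitochondria, had 1.09 CPM. The ratios to genes other than the 5 were picked after the levels were seen.

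In the cytosol, acetoacetyl-CoA synthetase (*Aacs*), which uses ketone bodies for lipid synthesis, had 2.14 CPM per kb. *Hmgcs1*, the cytosolic synthase of the sterol pathway, had 63.1 CPM per kb.

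Of the other carriers, *Slc5a12*, *Slc5a8* and *Slc16a7* had a higher level per kb than *Slc16a1*, *Slc16a6* a similar one, and *Slc16a3* and *Slc16a8* lower ones. Per kb, the sodium-coupled monocarboxylate carrier *Slc5a12* of the proximal tubule was 30.35 times *Slc16a1*, and its relative *Slc5a8* was 6.72 times. MCT2 (*Slc16a7*), a high-affinity carrier of ketone bodies and lactate, was 6.84 times *Slc16a1* when its RefSeq transcript was taken. Transcripts not listed as RefSeq mRNA gave *Slc16a7* up to 108 CPM, against 43.0 CPM for the RefSeq one, so its level depended on the transcript model. MCT4 (*Slc16a3*), the lactate exporter of glycolytic cells, had 0.787 CPM per kb and MCT3 (*Slc16a8*) 0.0315. The latter rests on the RefSeq transcript of *Slc16a8*, at 0.0568 CPM, whereas its highest transcript, not listed as RefSeq mRNA, had 0.157 CPM. *Slc16a6*, reported to export ketone bodies from hepatocytes, had 2.67 CPM per kb, close to *Slc16a1*. Before correction for length it had 6.30 CPM, against 11.5 CPM for *Slc16a1*. Basigin (*Bsg*), the partner that brings MCT1 to the membrane, had 142 CPM per kb, 54.4 times *Slc16a1*, and the related *Emb* had 6.93.

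Among regulators, *Ppara* had 13.4 CPM per kb and its coactivator *Ppargc1a* 11.6, both near *Bdh1*. The 3-hydroxybutyrate receptor *Hcar2*, listed under an older symbol, had 0.207 CPM. The fasting hormone *Fgf21* had 0.0322 CPM, close to the lowest value of 0.0263 CPM.

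**Figure D4:**
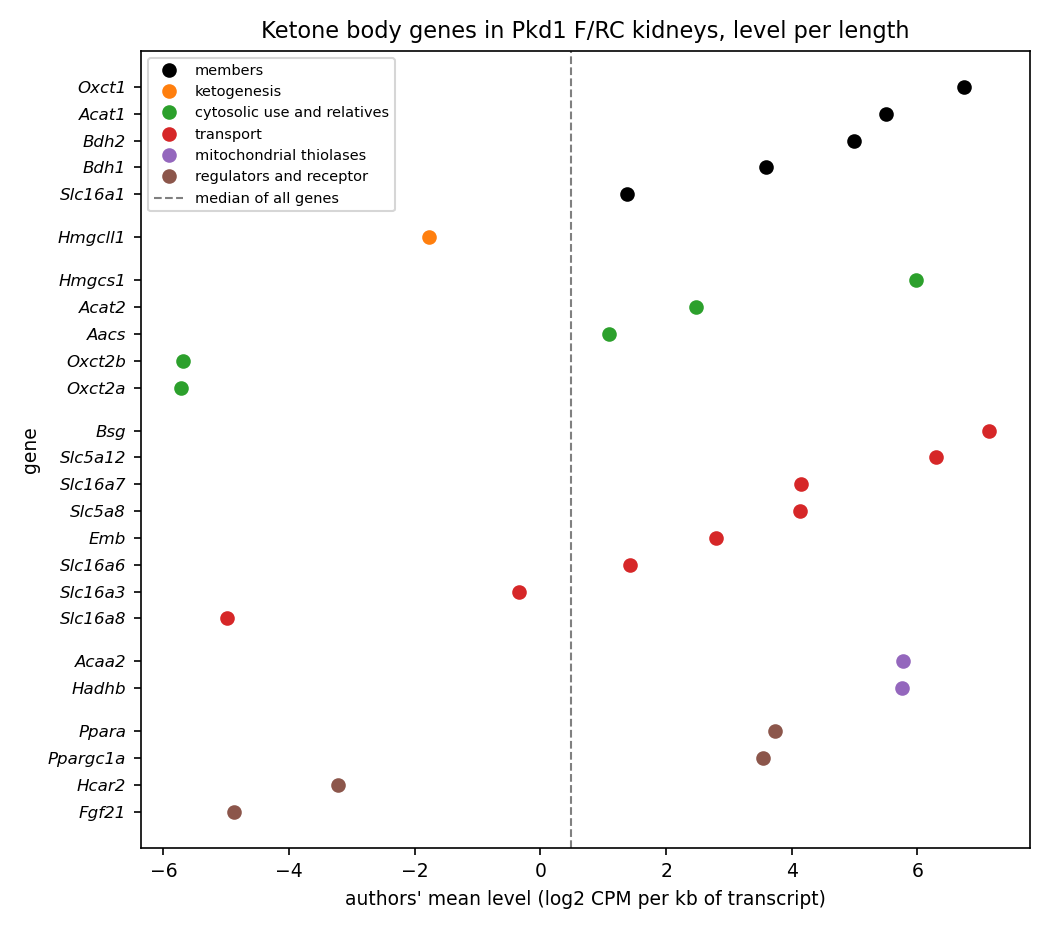
Authors' mean level in log2 CPM per kb of transcript for the 5 genes (black, labelled members) and 20 further genes of the pathway by role (colours), 1 point per gene without error since no replicate values were used. The dashed line is the median of 20167 genes (1.404 CPM per kb on the linear scale). *Oxct1* stands at 6.75, and *Slc16a1* at 1.38 against 6.30 for *Slc5a12*.

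The tissue label was checked against markers. All 6 markers of the proximal tubule were present, from 81.8 CPM for *Slc22a6* to 1030.0 CPM for *Slc34a1*. So were the 3 of the thick ascending limb, from 7.98 CPM for *Cldn16* to 1022 CPM for *Umod*. Markers lay between 3.14 and 169.9 CPM for the distal convoluted tubule (3 genes), 23.1 and 77.7 CPM for the collecting duct (5 genes), and 13.0 and 130.6 CPM for podocytes (3 genes). Those of endothelium lay between 27.0 and 60.2 CPM and those of fibroblasts between 44.8 and 128.1 CPM. The 3 markers of macrophages and leukocytes lay between 4.49 and 8.20 CPM, the 3 of liver between 1.4 and 18.2 CPM and the 3 of the adrenal gland under 1 CPM. The part of each cell type in the levels of the 5 genes was not tested. Of the engineered loci, *Pkd1* had a mean of 31.8 CPM and *Mir17hg*, the host transcript of the cluster, 4.21 CPM. A mean over both groups cannot show whether either locus was recombined.

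The 6 mature miRNAs of the deleted cluster are shown because DKO mice were designed to lose them in cells with KspCre. Sequences are from RefSeq, read 5′ to 3′ on the forward strand of chromosome 14 (GRCm38.p6), and capitals mark the seed, bases 2 to 8. They are grouped by shared seed.
miR-17: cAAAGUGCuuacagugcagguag
miR-20a: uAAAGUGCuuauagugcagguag
miR-18a: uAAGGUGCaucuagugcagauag
miR-19a: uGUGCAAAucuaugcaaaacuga
miR-19b: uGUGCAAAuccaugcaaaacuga
miR-92a: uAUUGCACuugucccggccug
miR-17 lies at chr14:115043684-115043706 and miR-92a, at the other end of the cluster, at chr14:115044476-115044496.

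The 7-base complements of these 4 seeds were GCACTTT for miR-17 and miR-20a, GCACCTT for miR-18a, TTTGCAC for miR-19a and miR-19b, and GTGCAAT for miR-92a. They were sought in the sense strand of the 3′ UTR of the transcript with the highest mean. None of the 5 genes held any of them. Among 3′ UTRs of 0.8 to 1.25 times the same length, at least 1 of the 4 was held by 55.9% for *Slc16a1*, 43.4% for *Acat1*, 39.1% for *Bdh1*, 37.1% for *Oxct1* and 5.11% for *Bdh2*. The absence says only that these letters are not in these 3′ UTRs of the GENCODE M21 annotation.

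Of the 20 further genes, *Ppara* and *Slc5a12* held a match, against 26.4% of 18921 genes for at least 1 of the 4 seeds. That share was not matched for length. The median 3′ UTR over these genes was 785 nt, against 1561 nt for *Ppara* and 1363 nt for *Slc5a12*. *Ppara* held 3, which were 1 each for miR-17 and miR-20a, miR-18a, and miR-19a and miR-19b. *Slc5a12* held 1. The site in *Slc5a12* is shown with 11 bases on each side, on the forward strand, with the match in capitals.
Slc5a12: aatgggaatctGCACCTTcaatgctgctc
The match, to the seed of miR-18a, is at chr2:110646877-110646883 in exon 15 of 15, at positions 461 to 467 of a 3′ UTR of 1363 nt. Over 18921 genes with a 3′ UTR of any length, 7.22% held this match, a share likewise not matched for length.

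For 4 of the 5 genes, 5 promoters (2 of *Bdh1*) were searched on both strands, from 250 bases before to 50 after each start. The motifs were chosen after the table was seen. *Acat1* was not searched. AGGTCA, the half-site of many nuclear receptors, was in none of these 5 promoters, against 16.3% of 32851 promoters. So few promoters cannot show whether its absence is particular to these genes. The longer form TCAAGGTCA, bound by estrogen-related receptors, contains AGGTCA, so its absence follows from the first search. It was in 0.423% of all promoters. CACGTG, an E-box that Myc can bind, was in that of *Slc16a1* only, against 7.15%. These matches are letters in a window and not measured binding.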

How the data were processed

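Total RNA of 6 whole kidneys was sequenced from strand-specific libraries as short single-end reads. Per the paper's methods, low-quality ends were trimmed, TopHat2 2.0.12 aligned what was left to mm10 with the iGenomes annotation, and poorly mapped alignments were removed. Those methods name edgeR or Cuffdiff for abundance and differential expression, and the submitters' processing notes name edgeR 3.2.4, Cufflinks, and featureCounts of Subread 1.4.6, with no role or order. The deposited values used here are log2 CPM, a mean per transcript by the authors. How it was normalized is not given in the sources used here. On the linear scale they sum to 1007270 over 54721 transcripts, and the depth of each library is unknown. The deposited fold change, likelihood ratio statistic, p-value and adjusted p-value hold the authors' own comparison and were not used. The quasi-likelihood test was planned only for counts of single samples and was not run, since only the mean level was used.

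Transcripts were matched by symbol. Where a gene had several, the one with the highest mean gave its CPM, and the RefSeq mRNA with the highest mean gave its level per kb. Lengths, exons and 3′ UTRs came from GENCODE M21 (GRCm38), paired by RefSeq identifier for 20167 of 20470 genes. The iGenomes models may differ from these. Seed matches had 7 bases. The seed search, the comparison of transcripts within genes and the levels per kb across all genes were chosen after the table was seen. Searches were tested on simulated data. Python 3.11.15, numpy 2.4.6 and pandas 2.3.3 were used. The 5 genes, the pathway list and the markers were chosen with earlier results of these data known. All 5 genes and the pathway list were named, except for 2 genes of that list that are not reported here.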

Additional observations from a re-analysis of the deposited data

How the results depend on the processing

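All values are means without replicate error, so a value was taken as moved when it changed at 2 decimals. Levels of *Oxct1*, *Acat1* and *Slc16a1* kept their value when transcripts were summed or their median was taken, since each has 1 transcript. Summing gave 75.3 CPM for *Bdh1* and 74.7 for *Bdh2* (whether shared reads were counted for both transcripts was not tested), and the median gave 37.7 and 37.4. Divided by the length of the longest annotated transcript, the same CPM gave 11.95 CPM per kb for *Bdh1* (3162 nt) and 11.96 for *Bdh2* (3134 nt, a retained intron). *Bdh2* then no longer stood clear of *Bdh1*, but with a length that is not that of its listed transcripts. The other genes kept their level per kb.

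The share of gene symbols with a lower CPM, not corrected for length, was 89.8% for *Bdh1*, 89.7% for *Bdh2*, 99.8% for *Oxct1*, 98.8% for *Acat1* and 70.4% for *Slc16a1*. Among 13001 symbols with at least 1 CPM, it was 81.8%, 81.6%, 99.55%, 97.8% and 47.0% in the same order. With RefSeq mRNA transcripts only, it was 89.2%, 89.1%, 99.7%, 98.7% and 67.7%. Per kb, an alternative chosen after seeing the data, it was 88.4%, 96.0%, 99.0%, 97.3% and 59.95%.

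Alternatives that need counts (DESeq2 and its size factors, a filter on low counts, omission of single kidneys) were not run, since they require the values of single samples. No paired analysis was possible because no values of single samples were used.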
